A study of Mus musculus with 32 samples.

Results

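The genes studied here are 10 that mark the sinusoidal endothelium, the lining of the liver's capillaries. They are Stab2, Lyve1, Wnt2, Gpr182, Clec4g, Sox18, Pcdh12, Oit3, Dnase1l3 and Gata4, and were followed in liver RNA of mice given lipopolysaccharide (LPS), a bacterial cell wall product that sets off innate immunity. They were picked by gene name on the array, with their response to LPS already known from these samples. Their change after LPS is therefore given as a description, without a test. All 10 of 10 were found among the 19199 gene names measured. The 10 genes did not move as a set. Relative to wild-type saline mice, Wnt2, Gpr182, Sox18, Pcdh12 and Oit3 were lower by 6 h, Clec4g and Dnase1l3 were lowest at 20 h, Lyve1 was higher at both times, and the mean of Stab2 differed by less than its spread between mice.

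Sinusoidal endothelial cells are fenestrated, lack an organised basement membrane, and clear hyaluronan, collagen fragments and other waste from blood through scavenger receptors such as Stab2. They also send signals to their neighbours: Wnt ligands from the endothelium around the central vein maintain a programme of gene expression in nearby hepatocytes, and GATA4 is a transcription factor that keeps these vessels from turning into continuous capillaries. In inflammation, endothelial cells display adhesion molecules that capture white blood cells.

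The series asks what E2F1, a transcription factor of the cell cycle, does when the innate immune system meets LPS. Each of 32 mice gave 1 one-colour Agilent array. Wild-type mice carried E2F1+/+ (strain field B6x126 F2, titles B6129) and knockout mice E2F1-/- (strain field B6;129 joined to that genotype). Each genotype had 6 mice on saline (collected at 20 h), 4 mice 6 h after LPS and 6 mice 20 h after LPS, and there was no saline group at 6 h. Age, sex and LPS dose are not given in the sources used here, nor is the deleted part of E2f1, so the level of its probe (log2 level -6.21 to -0.23 over the 31 arrays with a value) checks no genotype label. That probe was not lower in the mice labelled knockout. Its mean was -3.36 in wild-type and -3.23 in knockout mice on saline, -3.83 and -2.30 at 6 h, and -5.57 (2 of 5 wild-type arrays well above background) and -2.05 at 20 h. The difference at 20 h, 3.52 ± 0.58 higher in the knockout, passed the test (adjusted p 0.00348 by limma), and that at 6 h, 1.53 ± 0.68, did not (adjusted p 0.374). Without the 2 libraries described below these were 3.52 ± 0.59 and 1.56 ± 0.75 (adjusted p 0.00340 and 0.369). All genotypes below are those of the labels.

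Levels below are log2 of the array's processed signal minus the 75th percentile of that array, so 0 is the signal that 75% of spots do not exceed, and a difference of 1 is a doubling. A level not well above background is named as such, and the size of a difference that rests on it is not exact. The 75th percentile signal ranged from 281 to 1144 units, and 20203 to 28891 spots per array were well above background. The labels name the tissue as liver but their extraction protocol names lung. The hepatocyte genes Alb (9.18 to 11.23) and Cyp2c29 (4.43 to 8.18) were bright on all 32 arrays, and the lung surfactant genes Sftpb and Sftpc were well above background on 0 arrays. Of the 6 genes of the lung list, 3 passed the filter on dim probes: Sftpa1 was well above background on 27 arrays, Sftpd on 29 and Scgb1a1 on 15, with means of -4.96, -4.65 and -4.72 on wild-type saline arrays. Sftpa1 and Sftpd rose in wild-type mice at 6 h by 1.90 ± 0.65 and 2.93 ± 0.75 (adjusted p by limma 0.0286 and 0.00361) and at 20 h by 4.52 ± 0.59 and 3.07 ± 0.67 (adjusted p 1.15e-06 and 0.000649). Whole liver was measured, so fewer sinusoidal cells and less RNA per cell cannot be told apart.

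There were 2 libraries that stood apart from their labels. On a score that is 0 at the mean of wild-type saline and 1 at the mean of wild-type 6 h LPS, built from the 5475 genes called between those groups, the library labelled knockout saline replicate 1 scored 0.89 while the other 5 of its group lay between -0.01 and 0.06. The library labelled knockout LPS 6 h replicate 1 scored 0.13 while the other 3 lay between 0.90 and 0.98. Both are on slide 8 and on the third scan date. Each knockout result is therefore given with and without these 2 libraries, called the 30-array values when they are left out. The genes below are first described in wild-type mice, whose levels and differences hold neither library. Their SEs and intervals do, since the spread is estimated over all 32 arrays: at 6 h the SE was 0.99 for Wnt2 and 0.60 for Lyve1, and 0.72 and 0.42 in the 30-array fit.

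Promoters of 3 genes are shown first. These are the 3 of 9 genes searched that had an entry among the promoter sequences used, and they happen to differ in course (Wnt2 early, Clec4g late, Stab2 with no clear difference). They are the 250 bases before the start of the RefSeq transcript on GRCm38.p6, all on the minus strand, written 5′ to 3′, at chr6:18030446-18030695 for Wnt2, chr8:3720652-3720901 for Clec4g and chr10:87007943-87008192 for Stab2. Capitals mark AGGAAG, a form of the ETS site, on either strand. ETS factors such as ERG bind endothelial enhancers.
Wnt2: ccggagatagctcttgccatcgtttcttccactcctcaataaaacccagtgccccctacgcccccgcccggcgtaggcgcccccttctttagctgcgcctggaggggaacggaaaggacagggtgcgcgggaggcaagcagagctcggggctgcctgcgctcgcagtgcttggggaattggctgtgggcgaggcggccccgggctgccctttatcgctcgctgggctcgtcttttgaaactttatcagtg
Clec4g: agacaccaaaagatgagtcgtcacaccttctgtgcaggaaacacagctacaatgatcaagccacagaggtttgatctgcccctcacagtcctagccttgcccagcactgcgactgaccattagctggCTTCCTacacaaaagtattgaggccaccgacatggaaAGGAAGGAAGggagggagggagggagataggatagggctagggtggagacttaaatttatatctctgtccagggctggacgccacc
Stab2: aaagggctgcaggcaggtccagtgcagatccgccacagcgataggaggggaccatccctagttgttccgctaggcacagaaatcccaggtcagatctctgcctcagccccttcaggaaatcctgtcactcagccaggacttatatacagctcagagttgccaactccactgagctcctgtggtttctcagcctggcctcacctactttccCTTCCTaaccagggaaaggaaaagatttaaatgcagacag

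AGGAAG was found 3 times in the Clec4g window, 2 of them overlapping, 1 time in the Stab2 window and 0 times in the Wnt2 window. Of all 32851 promoters of that length, 29.5% hold it at least once and 1.22% at least 3 times. AGATAA, a form of the GATA site, and ACAATG, a form of the SOX site, were each searched on both strands. They are held by 9.99% and 10.69% of promoters. Among these 3 windows ACAATG was found in that of Clec4g and AGATAA in none. Other forms of the ETS, GATA and SOX sites were not searched, so a window without these letters may still hold such a site. These are matches of letters and not measured binding sites.

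Wnt2, a Wnt ligand made by the endothelium around the central vein, was among the lowest genes relative to saline at 6 h (probe at chr6:17939284-17939343, mm9). In wild-type saline mice its level was 0.28 at the lowest, 0.35 at the median and 0.82 at the highest. At 6 h the 4 wild-type mice stood at -3.31, -4.41, -3.55 and -2.42, the second of them not well above background. At 20 h the lowest, median and highest were -2.95, -2.21 and -0.30. All LPS-treated wild-type mice lay below all saline mice at both times. The difference was -3.91 ± 0.99 (SE) at 6 h, or 14.99-fold, and -2.51 ± 0.88 at 20 h, or 5.70-fold, and 3 of 6 mice at 20 h lay above the highest mouse at 6 h.

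Sox18, a transcription factor of vascular development (chr2:181404789-181404848), ranged from -0.98 through a median of -0.44 to 1.06 on saline in wild-type mice. At 6 h it stood at -4.35, -6.55, -5.03 and -6.25, with 1 of the 4 arrays well above background. At 20 h it spanned -4.54 to -0.52 with a median of -2.50. The 6 h mice were all below the saline mice, at a difference of -5.35 ± 1.00, which at 20 h was -2.27 ± 0.90. Of the 20 h mice, 5 of 6 lay above every 6 h mouse and 2 of 6 were back within the saline range.

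Pcdh12, an endothelial protocadherin that sits at contacts between cells (chromosome 18), followed the same course on its brighter probe. It ranged from 0.43 to 1.13 on saline, with a median of 0.87, and stood at -4.14, -5.31, -3.84 and -4.97 at 6 h, where 1 of 4 arrays was well above background. At 20 h it spanned -3.75 to 0.55 with a median of -1.97, and all 6 mice lay above every 6 h mouse. The difference from saline was -5.42 ± 1.11 at 6 h and -2.53 ± 0.99 at 20 h. Its other probe, well above background on 18 of 32 arrays, did not show this course (0.16 at 6 h and 0.37 at 20 h).

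Gpr182, a receptor of endothelial cells that takes up chemokines (chr10:127186757-127186816), was brighter throughout. Wild-type saline mice ranged from 2.76 to 3.85 with a median of 3.43. The 6 h mice stood at -0.18, -1.41, -0.08 and 0.08, all below saline and all well above background, a difference of -3.75 ± 0.73 or 13.5-fold. The 20 h mice spanned 0.02 to 3.59 with a median of 1.73, 5 of 6 lay above every 6 h mouse, and the difference had shrunk to -1.58 ± 0.65. A second Gpr182 probe was not well above background on any wild-type 6 h array and was at least 4.34-fold lower there than on saline (normalised saline mean against, per array, the higher of the dim probe's level and the lowest level well above background).

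Oit3, a secreted protein of the sinusoidal endothelium (chr10:58886254-58886313), was lower at both times without this return. Saline mice ranged from 1.42 to 2.18 with a median of 1.79, and the 6 h mice stood at 0.35, -0.47, 0.02 and 0.27, all below saline. The 20 h mice spanned -1.41 to 1.42 with a median of -0.46, and 1 of 6 lay within the saline range. The differences were -1.74 ± 0.58 at 6 h and -2.10 ± 0.52 at 20 h, and its second probe gave -1.55 and -1.81.

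Clec4g (LSECtin), a lectin that binds glycoproteins of viruses and of other cells (chr8:3716182-3716241), was the member with the largest difference at 20 h. Wild-type saline mice ranged from 3.16 to 4.61 with a median of 3.96. At 6 h the mice stood at 1.92, 2.19, 3.18 and 2.46, overlapping saline in 1 mouse. At 20 h they spanned -2.41 to -0.41 with a median of -1.74, and all 6 were below every 6 h mouse. The difference from saline was -1.43 ± 0.66 at 6 h and -5.46 ± 0.59, or 44.2-fold, at 20 h. Of 2 other probes for this name, 1 was well above background on 4 arrays and 1 on 0 arrays, so the course rests on 1 probe, which was well above background on all 32.

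Dnase1l3, a secreted nuclease that digests DNA in chromatin and cell debris (chr14:8799409-8799468), was also a late gene in wild-type mice. It ranged from 1.40 to 2.58 on saline with a median of 2.08, and stood at 2.01, 1.92, 1.65 and 1.76 at 6 h, inside the saline range in every mouse. The 20 h mice spanned -0.37 to 0.81 with a median of 0.05, all below saline and all below the 6 h mice. The differences were -0.21 ± 0.33 at 6 h and -1.90 ± 0.30, or 3.73-fold, at 20 h.

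Lyve1, a hyaluronan receptor of sinusoidal and lymphatic endothelium that some macrophages also make (chr7:117994171-117994230), was the only member higher at both times in all wild-type mice. On saline it spanned -1.71 to 0.49 with a median of -0.20. It stood at 2.18, 2.45, 2.98 and 2.58 at 6 h and spanned 1.99 to 3.38 with a median of 2.46 at 20 h. The differences were 3.02 ± 0.60 at 6 h and 3.02 ± 0.54 at 20 h, or 8.11-fold and 8.08-fold, and no treated mouse overlapped a saline mouse. Its second probe showed 3.76 and 3.41.

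Stab2, the main scavenger receptor for hyaluronan on these cells (chr10:86304198-86304257), did not separate the groups. Wild-type mice ranged from 1.21 to 2.92 on saline with a median of 1.99. They stood at 2.45, 1.495, 3.285 and 1.89 at 6 h and spanned 1.35 to 2.92 with a median of 2.36 at 20 h. The differences of 0.24 ± 0.40 and 0.21 ± 0.36 have 95% intervals of -0.58 to 1.06 and -0.52 to 0.94. The gene was picked with this response known, so the intervals describe the spread and exclude no size of change. All 6 wild-type mice at 20 h were within the saline range.

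Gata4, the transcription factor of sinusoidal identity (chr14:63817752-63817773 as the design gives the probe), was dim. Its brighter probe was well above background on 3 of 6 wild-type saline arrays, 1 of 4 at 6 h and 6 of 6 at 20 h. Levels ran from -4.19 to -3.00 on saline, stood at -4.76, -4.66, -3.54 and -5.04 at 6 h, and ran from -3.69 to -2.36 at 20 h. The groups overlapped at both times, with differences of -0.84 ± 0.27 and 0.52 ± 0.24. The second probe, printed in 10 spots, was not well above background on any wild-type 6 h array (at least 1.498-fold lower than saline) and differed by -0.78 at 20 h, so the 2 probes disagree in direction at 20 h.

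**Figure D1:**
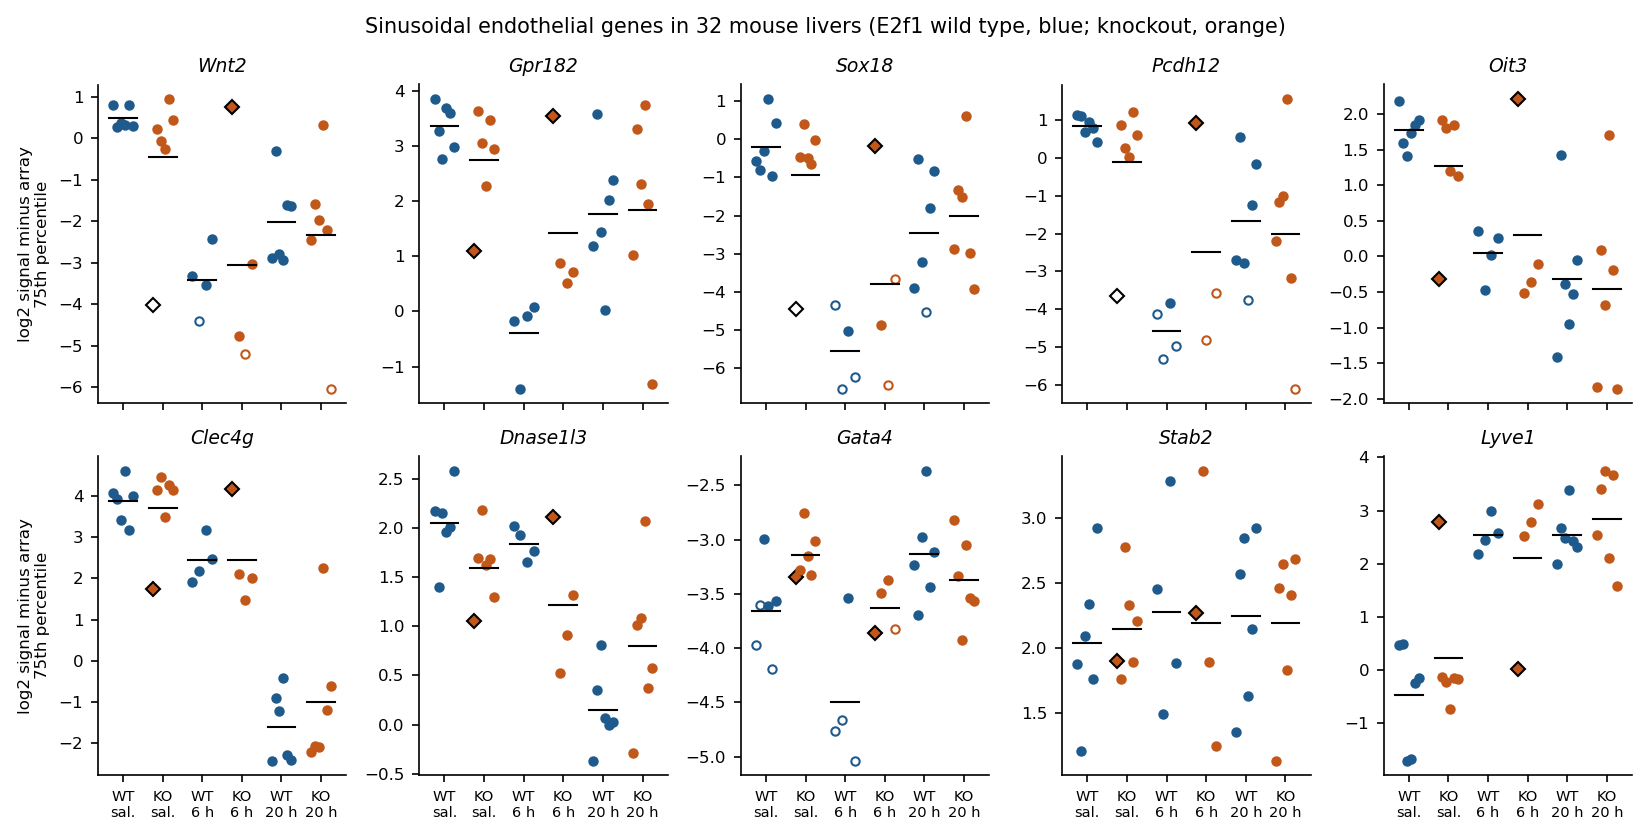
Log2 level of each of the 10 genes (y axis, log2 signal minus the array's 75th percentile) in the 6 groups (sal. is saline, 6 h and 20 h are times after LPS); each point is 1 mouse, bars are group means, hollow points are not well above background and diamonds are the 2 libraries that stand apart. Lyve1 is higher and Wnt2 lower in every LPS-treated wild-type mouse than on saline, and the diamonds lie at the edge of their group for every gene but Stab2.

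Counted over the 10 members, the groups did not overlap for 1 higher and 5 lower genes at 6 h in wild-type mice, where 11.7% and 15.9% of all gene names did so, and for 1 higher and 3 lower genes at 20 h, where 9.25% and 13.0% did. The median difference of the members was -1.58 at 6 h and -1.998 at 20 h, beside 0.01 and -0.03 over all names. The members were chosen on this contrast, so these counts describe them and nothing is read from them. Within each of the first and second scan dates, taken alone, the wild-type differences kept the sign given above for every member but Stab2, whose 20 h difference was 0.19 and -0.13; at 6 h Wnt2 was at -3.88 and -3.06, Gpr182 at -3.22 and -3.49 and Lyve1 at 4.16 and 2.34, and at 20 h Clec4g was at -5.98 and -5.13. Of the wild-type 6 h mice, the first date held only replicate 3 and the second only replicate 4. Each 6 h difference within a date therefore rests on 1 treated mouse. The third date held no wild-type saline mouse.

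In knockout mice Wnt2, Sox18, Pcdh12, Gpr182, Oit3, Clec4g and Lyve1 took courses in the same directions once the 2 libraries were left out. Wnt2 in the 5 remaining saline mice ranged from -0.27 to 0.95, and in the 3 remaining 6 h mice stood at -4.78, -5.20 (not well above background) and -3.03. At 20 h it spanned -6.04, not well above background, to 0.32 with a median of -2.09. Clec4g likewise ranged from 3.48 to 4.45 on saline, stood at 2.10, 1.47 and 2.01 at 6 h, and spanned -2.22 to 2.25 with a median of -1.63 at 20 h. Lyve1 ranged from -0.74 to -0.14 on saline, stood at 2.51, 2.79 and 3.12 at 6 h and spanned 1.58 to 3.75 at 20 h. None of the LPS-treated knockout mice overlapped the saline mice for Clec4g or Lyve1.

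The 30-array differences in knockout mice at 6 h were -4.60 ± 0.81 for Wnt2, -4.75 ± 0.87 for Sox18 and -2.37 ± 0.74 for Gpr182. Pcdh12 had 2 remaining 6 h values, neither well above background, and was at least 20.9-fold lower than on saline. Oit3 differed by -1.91 ± 0.56, Clec4g by -2.24 ± 0.66 and Lyve1 by 3.10 ± 0.48. At 20 h Wnt2, Sox18, Pcdh12 and Gpr182 had moved back towards saline, at -2.58 ± 0.67, -1.77 ± 0.72, -2.61 ± 0.84 and -1.24 ± 0.61, with 5 of 6 mice above the highest 6 h mouse for each of them. Clec4g was at -5.08 ± 0.55, Oit3 at -2.04 ± 0.46 and Lyve1 at 3.13 ± 0.39.

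The differences of Stab2, Gata4 and Dnase1l3 in the same 30-array fit were under 1 log2 unit in knockout mice. Stab2 differed by -0.02 ± 0.47 at 6 h and 0.00 ± 0.39 at 20 h, Gata4 by -0.46 ± 0.31 and -0.27 ± 0.26, and Dnase1l3 by -0.78 ± 0.35 and -0.89 ± 0.29. Saline and LPS overlapped for these genes at both times, except that the 3 Gata4 levels at 6 h lay below all 5 saline levels, and the last of them was not well above background. With the 2 libraries in, the 6 h differences were -2.61 ± 0.99 for Wnt2, -2.84 ± 1.00 for Sox18, -1.33 ± 0.73 for Gpr182 and 1.89 ± 0.60 for Lyve1. For Pcdh12, Oit3, Clec4g, Dnase1l3, Gata4 and Stab2 they were -2.38, -0.96, -1.27, -0.37, -0.49 and 0.05. The 20 h differences with them were -1.87 for Wnt2, -1.06 for Sox18, -1.905 for Pcdh12, -0.91 for Gpr182 and -1.73 for Oit3. Clec4g was then at -4.69, Lyve1 at 2.62, Dnase1l3 at -0.78, Gata4 at -0.23 and Stab2 at 0.05. Groups that did not overlap numbered 0 higher and 1 lower at 6 h with the libraries (background 0.406% and 0.484%) and 1 higher and 7 lower without them (15.3% and 20.9%). At 20 h they numbered 0 and 0 with them (1.51% and 2.35%) and 1 and 1 without them (6.66% and 6.58%).

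**Figure D2:**
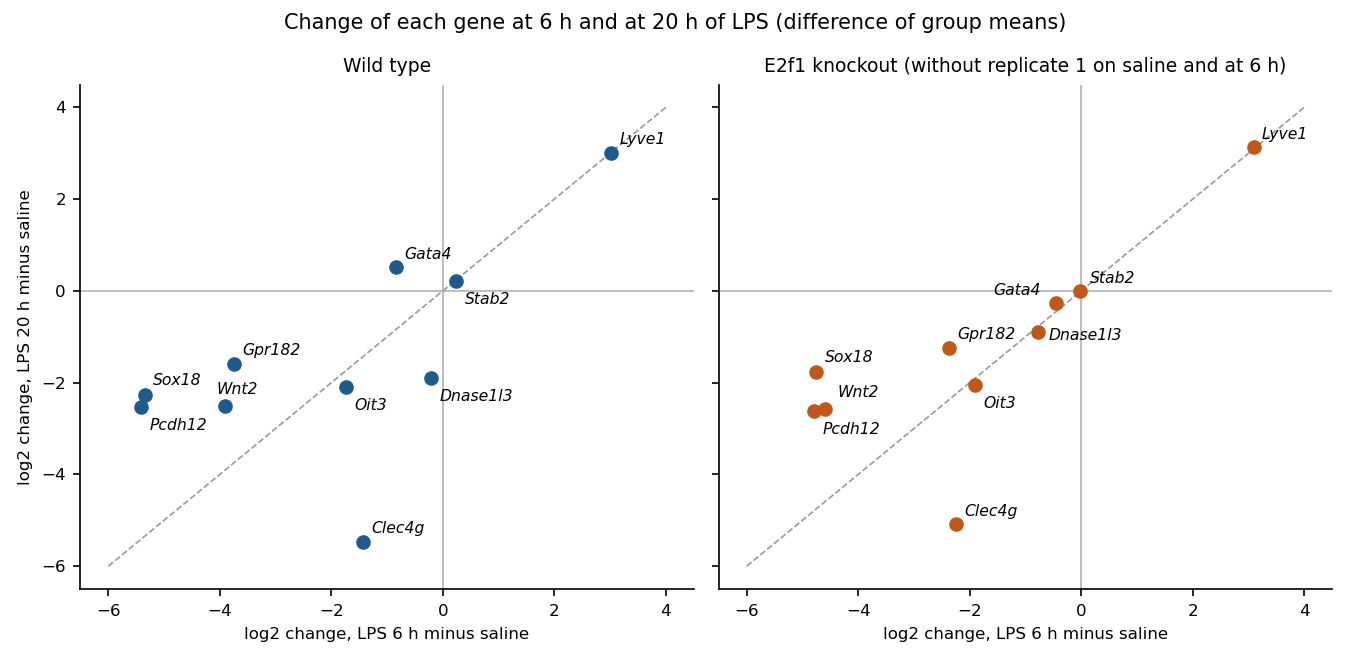
Difference from saline at 6 h (x axis) against that at 20 h (y axis), in log2 units, for each of the 10 genes in wild-type mice (left) and knockout mice without the 2 libraries (right); the dashed line marks equal differences. Wnt2, Gpr182, Sox18 and Pcdh12 lie above the line at the left, Clec4g lies far below it, and Lyve1 lies at 3.02 and 3.02 in wild-type mice; both axes share the saline mice of that genotype.

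The 2 libraries carry most of the members in the direction opposite to their labels. In the library labelled knockout saline replicate 1, Wnt2 was at -4.01, Sox18 at -4.46 and Pcdh12 at -3.64, none well above background, and Lyve1 was at 2.79. In the library labelled knockout LPS 6 h replicate 1, Wnt2 was at 0.76, Sox18 at -0.17, Pcdh12 at 0.92, Gpr182 at 3.54 and Lyve1 at 0.02. Stab2 was within the range of the other mice of its group in both (1.91 and 2.27). The cause was not tested.

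At 20 h the early genes differed widely between mice and did so together. Over the 12 LPS-treated mice of both genotypes, the pairwise Pearson r among Wnt2, Gpr182, Sox18, Pcdh12 and Oit3 lay between 0.81 and 0.95 with a median of 0.86 over 10 pairs; this set of 5 was formed after the values had been seen. Over 11 saline mice, the apart library left out, the same 10 pairs gave -0.36 to 0.81 with a median of 0.48. These points share array, scaling and RNA sample. Against the same 5 genes over the 12 mice, Dnase1l3 gave r of 0.35 to 0.61, Clec4g 0.13 to 0.54, Lyve1 0.01 to 0.28, Stab2 -0.05 to 0.30 and Gata4 -0.34 to -0.04.

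The mice at the top of this spread were knockout replicate 4 and wild-type replicate 2. Knockout replicate 4 had Wnt2 at 0.32, Sox18 at 0.60, Pcdh12 at 1.56, Gpr182 at 3.74 and Oit3 at 1.71, and was also the highest for Clec4g at 2.25. Wild-type replicate 2 had Wnt2 at -0.30, Gpr182 at 3.59 and Oit3 at 1.42, but its Clec4g was at -0.89. Lyve1 was 2.11 and 2.66 in these mice, above every saline mouse but the apart library. At the bottom, knockout replicate 6 had Wnt2 at -6.04, Pcdh12 at -6.11 (neither well above background), Gpr182 at -1.32 and Oit3 at -1.86.

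Other measures moved with this spread. On the 6 h response score the top mice were the lowest of the 20 h mice, at 0.24 and 0.35, and knockout replicate 6 was the highest, at 0.84. That score was built on the wild-type 6 h difference with members not left out, so it is not independent of the early genes. The summed linear level of 12 Kupffer cell and macrophage markers was 258 in knockout replicate 4 and 30.8 to 107 in the other 5 knockout mice at 20 h, and it was 71.5 in wild-type replicate 2, the highest of 6. Their part in the spread of the members was not tested.

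**Figure D3:**
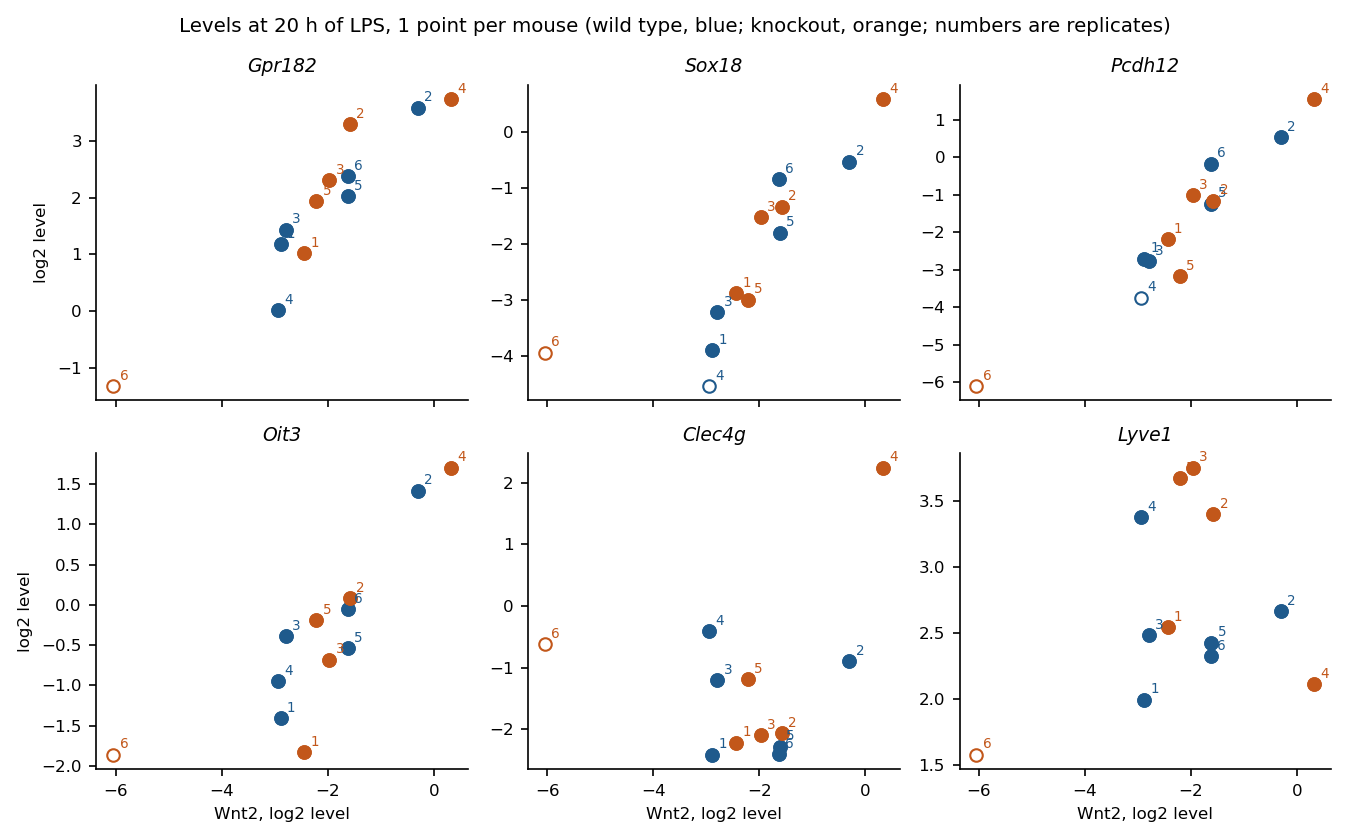
Level of 6 genes (y axes) against the level of Wnt2 (x axis), log2, in the 12 mice at 20 h of LPS (6 wild type, 6 knockout; numbers are replicates, hollow points are not well above background for Wnt2 or the gene plotted). Gpr182, Sox18, Pcdh12 and Oit3 rise with Wnt2 from knockout replicate 6 to knockout replicate 4, while Lyve1 shows no such order.

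The members were tested between the labelled genotypes, since they had not been chosen on that comparison. The strain field differs with genotype, so an effect of E2f1 and one of strain background cannot be told apart. With limma and Benjamini-Hochberg adjustment over all names, 0 of 10 members were called between genotypes on saline (0.333% of all names called), at 6 h (1.23%) or at 20 h (0.323%), and 0 of 10 for the interaction of genotype and LPS at 6 h (0.141%) or 20 h (0.0417%). An unadjusted p under 0.05 by limma was seen for 1, 2, 1, 1 and 2 members in these 5 comparisons. The share of all names under that threshold is not given here, so nothing is read from these counts. In the 30-array fit the called members were again 0 in each, against 0.349%, 1.37%, 0.521%, 0.146% and 0.0469% of all names. An adjusted p that misses 0.05 does not show equal levels, and the intervals are wide for the early genes.

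Wnt2 differed between knockout and wild-type saline mice by -0.94 ± 0.88 (95% interval -2.74 to 0.87), or by -0.23 ± 0.67 (-1.60 to 1.15) in the 30-array fit. At 20 h it differed by -0.29 ± 0.88 (-2.10 to 1.51). Clec4g differed at 20 h by 0.61 ± 0.59 (-0.60 to 1.82) and Lyve1 by 0.30 ± 0.54 (-0.80 to 1.40). Stab2 differed by 0.11 ± 0.36 on saline (-0.62 to 0.84) and -0.05 ± 0.36 at 20 h (-0.78 to 0.68).

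Gpr182 did not overlap between the genotypes at 6 h. The knockout mice stood at 3.54, 0.88, 0.52 and 0.71 and the wild-type mice at -0.18, -1.41, -0.08 and 0.08, all knockout values above all wild-type values (as for 4.22% of all names). The difference was 1.81 ± 0.80 with an adjusted p of 0.369 by limma. Without the 2 libraries it was 1.10 ± 0.77, adjusted p 0.608, and the groups still did not overlap (7.89%).

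Dnase1l3 had the lowest unadjusted p of the members for the interaction at 20 h, 0.0127 by limma, which did not pass after adjustment. At 20 h the knockout mice spanned -0.29 to 2.07 with a median of 0.79, against -0.37 to 0.81 with a median of 0.05 in wild-type mice, and the groups overlapped. The genotype difference at 20 h was 0.66 ± 0.30 (limma adjusted p 0.598), and the interaction at 20 h was 1.11 ± 0.42 (adjusted p 0.594), or 1.01 ± 0.40 (adjusted p 0.511) in the 30-array fit. At 6 h the genotype difference was -0.62 ± 0.36 (adjusted p 0.586), or -0.92 ± 0.36 (adjusted p 0.242) without the libraries, where all 3 knockout mice lay below the 4 wild-type mice (8.01% of names lay below in this way).

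Gata4 had the lowest unadjusted p of the members at 6 h. The knockout mice stood at -3.86, -3.49, -3.37 and -3.82, the last not well above background, against -4.76, -4.66, -3.54 and -5.04 in wild-type mice, of which only the third was well above background. The difference was 0.86 ± 0.30, adjusted p 0.179 by limma, and on saline 0.51 ± 0.24, adjusted p 0.735. Without wild-type LPS 6 h replicate 3 the 6 h difference was 1.18 with an adjusted p of 0.0404. The second Gata4 probe was not well above background on any 6 h array of either genotype.

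**Figure D4:**
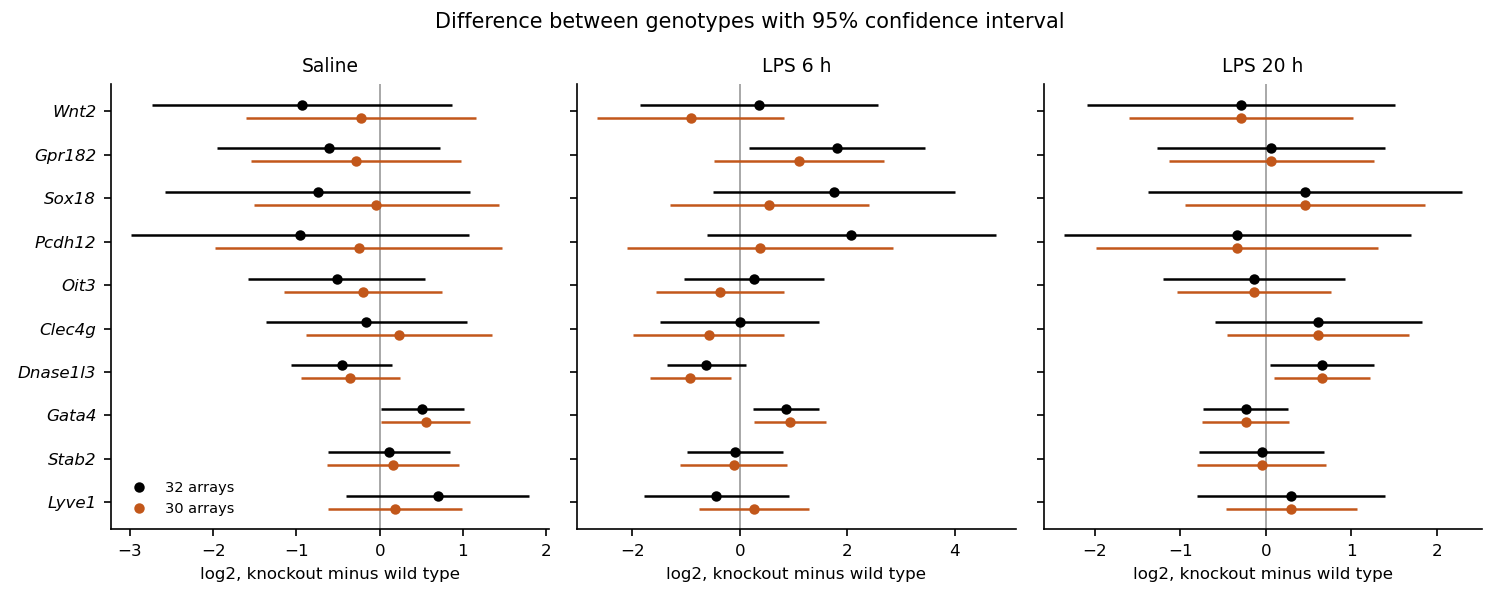
Difference between knockout and wild-type mice (x axis, log2, knockout minus wild type) for each of the 10 genes on saline, at 6 h and at 20 h of LPS; points are limma estimates and lines 95% confidence intervals, in black from all 32 arrays and in orange from the 30 arrays without the 2 libraries. The intervals of Wnt2, Sox18 and Pcdh12 are the widest, and no member passed the adjusted threshold in either fit.

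The 21 measured genes of another list of sinusoidal markers, members left out, were tested between LPS and saline. This list and those below were also chosen with earlier results of these data known. Their counts and p-values therefore describe the lists and are no independent support. In wild-type mice at 6 h, 7 of 21 fell and 1 rose, where 16.1% and 12.4% of all names did. At 20 h, 10 of 21 fell and 2 rose, beside 20.2% and 16.3%. The count that fell at 6 h depended on the setting: with the slide as a block it was 3 of 21 (11.5% of all names). Scan dates 1 and 2 each held 1 wild-type 6 h mouse, so no count within a date is given. Their median differences of -1.02 and -0.82 compare with 0.01 and -0.03 over all names. In the 30-array fit 11 fell and 2 rose at 6 h (18.0% and 14.2% of names), and 13 fell and 2 rose at 20 h (22.5% and 18.8%). Without wild-type LPS 6 h replicate 2, the number that fell at 6 h was 2, and 2304 of all 19199 names fell. In knockout mice 0 fell and 0 rose at 6 h with the 2 libraries (1.05% and 1.55%), and 12 fell and 1 rose without them (16.4% and 12.8%). At 20 h 9 fell and 2 rose (14.6% and 11.7%), and 11 fell without them (18.9%).

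The genes of this list also differed in their time course. Kdr, the VEGF receptor VEGFR2, fell, with differences of -2.94 ± 0.94 at 6 h and -3.65 ± 0.84 at 20 h in wild-type mice (adjusted p by limma 0.0183 and 0.00110). Ramp2, a partner of the adrenomedullin receptor, fell by 2.64 ± 0.60 at 6 h (adjusted p 0.00128) with a value of -0.31 ± 0.53 at 20 h (adjusted p 0.686). Cd209b, a lectin, was at -1.55 ± 0.61 at 6 h (adjusted p 0.0557) and fell by 3.93 ± 0.55 at 20 h (adjusted p 2.90e-06), where 2 of 6 arrays were well above background. Dll4, a Notch ligand, was not well above background on any 6 h array and was at least 2.66-fold lower than on saline (adjusted p 0.000384). Ehd3, a membrane-trafficking protein, fell, with differences of -1.71 ± 0.56 at 6 h and -3.50 ± 0.50 at 20 h (adjusted p 0.0217 and 4.37e-06).

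Genes that hepatocytes around the central vein express under Wnt signalling were read beside Wnt2. Of 16 measured, 6 fell and 0 rose at 6 h in wild-type mice, and 16 of 16 fell at 20 h (all names called lower, 16.1% and 20.2%), with medians of -1.28 and -2.57. In knockout mice 1 fell at 6 h (1.05% of all names), or 8 without the 2 libraries (16.4%). At 20 h 12 fell (14.6%), or 14 without them (18.9%). The 3 called genes with the largest differences at 6 h, all known as targets of the pathway, were Sp5 at -5.22 ± 1.03 (adjusted p 0.000344, 1 of 4 arrays well above background), Lgr5 at -2.87 ± 1.01 (adjusted p 0.0323) and Rnf43 at -2.77 ± 0.67 (adjusted p 0.00245). At 20 h Notum fell by 5.98 ± 0.60 (adjusted p 3.53e-08, 1 of 6 arrays well above background), and the differences of Lgr5 and Tnfrsf19 were -5.39 ± 0.90 and -4.30 ± 0.58 (adjusted p 3.33e-05 and 2.14e-06). Of the metabolic genes in the list, the cytochrome Cyp2e1 was at 0.53 ± 0.26 and the glutamine synthetase Glul at 0.68 ± 0.51 at 6 h, which did not pass the test (adjusted p 0.136 and 0.342). Both fell at 20 h, with differences of -0.80 ± 0.24 for Cyp2e1 (adjusted p 0.00865) and -1.37 ± 0.46 for Glul (adjusted p 0.0190). Wnt9b, the other endothelial Wnt ligand of this zone, fell at both times, with differences of -1.78 ± 0.53 at 6 h with 1 of 4 arrays well above background (adjusted p 0.0113) and -1.36 ± 0.47 at 20 h (adjusted p 0.0246). Cyp2e1, Glul and Wnt9b were named after their values had been seen.

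Of 28 measured genes shared by all endothelium, 5 rose and 7 fell at 6 h in wild-type mice (12.4% and 16.1% of all names), and 6 rose and 7 fell at 20 h (16.3% and 20.2%), with medians of -0.46 and -0.15. These shares lie near those of all names. Clec14a was not well above background at 6 h and was at least 8.13-fold lower (adjusted p 0.00193), Sox17 fell by 3.63 ± 0.46 (adjusted p 3.53e-06, 1 of 4 arrays well above background) and Egfl7 was at -2.53 ± 0.38 (adjusted p 2.09e-05). Cd93 rose by 3.34 ± 0.37 at 20 h (adjusted p 1.87e-07). The junction gene Cdh5, named after its values had been seen, rose by 1.28 ± 0.29 at 6 h and 0.99 ± 0.26 at 20 h (adjusted p 0.00117 and 0.00333). Of 11 genes of continuous and large vessels, 2 rose and 4 fell at 6 h (12.4% and 16.1% of all names). At 20 h 2 of the 11 rose and 7 fell (16.3% and 20.2%), so a fall beyond the share of all names was not particular to the sinusoidal list. The connexin Gja4 rose by 2.84 ± 0.64 and thrombomodulin (Thbd) by 2.61 ± 0.66 at 6 h, and the tight-junction gene Cldn5 fell by 2.08 ± 0.54 (adjusted p 0.00116, 0.00338 and 0.00452).

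Endothelial activation genes rose in the same mice. Of 9, 8 rose at 6 h and 7 at 20 h in wild-type mice (12.4% and 16.3% of all names) and 0 fell at either time. Sele, the endothelial selectin, was not well above background on saline and was at least 27.0-fold higher at 6 h (adjusted p 2.10e-05). Selp, another selectin, rose by 5.49 ± 0.75 (adjusted p 8.44e-06). In knockout mice 4 of 9 rose at 6 h and 6 at 20 h (1.55% and 11.7% of all names). Without the 2 libraries 8 of 9 rose at 6 h (12.8%), and the median difference at 20 h was 2.90. The LPS-responsive chemokine Cxcl10 went from a mean level of -0.12 ± 1.26 (SD, n = 6) on saline to 8.72 ± 0.17 (SD, n = 4) at 6 h in wild-type mice.

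Hyaluronan genes were read beside Stab2 and Lyve1. Of 13 measured in a list of its synthesis, binding and breakdown, 5 rose and 2 fell at 6 h in wild-type mice (12.4% and 16.1% of all names), and 5 rose and 2 fell at 20 h (16.3% and 20.2%). The share that fell lay near that of all names. The hyaluronan receptor Cd44 rose by 2.40 ± 0.45 at 6 h (adjusted p 0.000223). Vcan, a proteoglycan that binds hyaluronan, was not well above background on saline and was at least 3.93-fold higher at 6 h and 4.36-fold higher at 20 h (adjusted p 0.000157 and 1.41e-05). The hyaluronidase Hyal1 fell by 2.01 ± 0.71 at 20 h (adjusted p 0.0262).

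**Figure D5:**
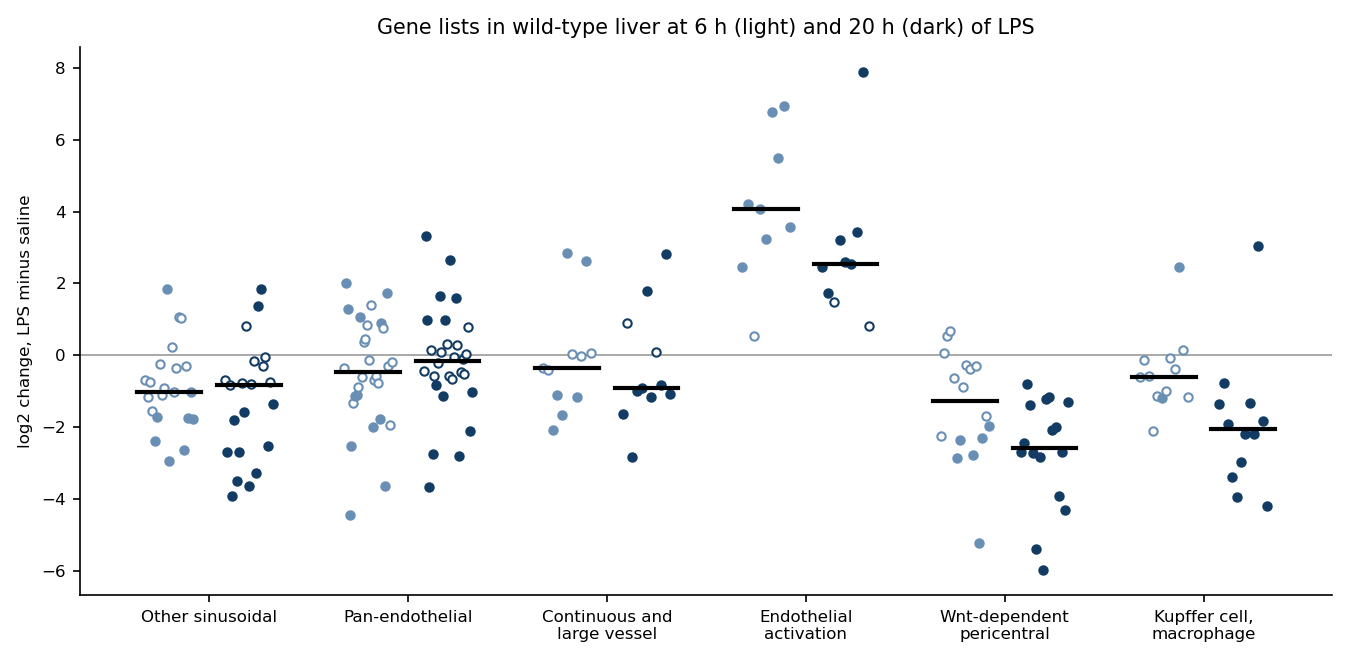
Difference from saline (y axis, log2) of each measured gene in 6 lists in wild-type mice at 6 h (light) and 20 h (dark) after LPS; filled points passed an adjusted p of 0.05, hollow points did not, and bars are list medians. The Wnt-dependent pericentral genes lie below 0 in all 16 cases at 20 h, and the endothelial activation genes have medians of 4.07 and 2.54.

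Markers of other cells were read beside the members. Neutrophil markers rose in 7 of 8 at 6 h and 8 of 8 at 20 h in wild-type mice (12.4% and 16.3% of all names). Their summed linear level went from 1.09 to 9.05 on saline to 54.1 to 95.6 at 6 h and 53.3 to 132 at 20 h. The 5 names whose levels most resembled Lyve1 over the 32 arrays were Srgn (r 0.94), Mmp8 (0.93), Angpt2 (0.93), Npy (0.93) and Hdc (0.92). Mmp8 is on the neutrophil list and Angpt2 on the endothelial activation list, and Srgn is a proteoglycan of blood cell granules. Of 4 measured markers of lymphatic endothelium other than Lyve1, 0 rose at 6 h or 20 h in wild-type mice (12.4% and 16.3% of all names). Of them 0 fell at 6 h and 2 at 20 h (16.1% and 20.2%). The lymphatic transcription factor Prox1 was at 0.76 ± 0.30 and -0.17 ± 0.27 (adjusted p by limma 0.0586 and 0.650). Their summed level was 3.75 to 6.82 on saline, 7.19 to 9.40 at 6 h and 2.43 to 7.06 at 20 h. The part of other cells in the rise of Lyve1 was not tested.

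Kupffer cell and macrophage markers fell in 11 of 12 at 20 h and 1 of 12 at 6 h in wild-type mice (20.2% and 16.1% of all names). Marco, 1 of 12, rose at 20 h and at 6 h (16.3% and 12.4% of all names). Their summed level was 66.8 to 92.5 on saline, 36.0 to 97.8 at 6 h and 19.2 to 71.5 at 20 h. Stellate cell markers fell in 2 of 10 at 6 h, near the 16.1% of all names (4 of 10 and 18.0% in the 30-array fit), and in 7 of 10 at 20 h, where 20.2% fell, with summed levels of 57.5 to 99.5, 63.4 to 93.0 and 18.8 to 46.9. At 20 h, when Clec4g and Dnase1l3 were low, the stellate sums lay below all saline sums and the Kupffer sums overlapped them in 2 mice. At 6 h, when the early genes were low, both sums overlapped saline. The part of cell numbers in either course was not tested.

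The 5 names most like Stab2 over the 32 arrays were Osbpl9 (r 0.67), Cdgap (0.66), Ube2g1 (0.64), Polr2b (0.64) and Usp46 (0.63). The same search for Wnt2, added after its values had been seen, gave Pth1r (0.97), Elk3 (0.95), Lcmt1 (0.95), Arvcf (0.95) and Aatk (0.95). Pth1r, a parathyroid hormone receptor, had means of 1.40 ± 0.27 (SD, n = 6) on saline, -4.27 ± 0.87 (n = 4) at 6 h and -1.99 ± 0.79 (n = 6) at 20 h in wild-type mice. These correlations run over all 6 groups and so hold the response to LPS itself.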

How the data were processed

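Liver RNA of 32 mice was hybridised in 1 colour (Cy3) to Agilent arrays with 41174 probes. Per the file headers, the authors' intensity values were made with Agilent Feature Extraction 10.7.1.1, which subtracts background and averages the pixels of a spot (column gProcessedSignal). The authors also deposited a table of processed log2 values of 23916 probes; its centring is not stated, and it served as an alternative only (r of 0.98 to 0.991 with the same array, column medians 8.8 to 8.91).

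Each array was log2-transformed and its 75th percentile subtracted. Outlier spots were dropped (84 to 232 per array), spots of a probe averaged, and probes kept if well above background on at least 4 arrays, leaving 28337. The brightest probe stood for each of 19199 names. limma 3.58.1 in R 4.3.3 fitted 6 group means to all arrays, with eBayes and Benjamini-Hochberg adjustment over all names (threshold 0.05, two-sided); it was tested on simulated data. Precision is limited by the number of arrays. Nothing beyond 1 array per mouse describes the replicates, so p-values measure the spread between these mice. An "at least" fold sets the bright group's mean against the higher of the dim probe's level and the lowest level well above background, per array with a value.

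The 10 genes and all gene lists were chosen with earlier results of these data known. Named genes of a list were its called genes with the 3 largest changes in wild-type mice at 6 h and at 20 h, plus E2f1, Cxcl10, Sele and the 5 names most correlated with Stab2 and with Lyve1, leaving out members and clone names; other names are marked where they occur, and 2 of the named genes are not reported here. Of the 17 probes of the 10 genes, 16 passed the filter. Promoters came from RefSeq (GRCm38.p6) and matched 3 of the 9 genes searched; probe positions are mm9 as deposited, and no source used here says whether a probe lies in an exon or a UTR. Arrays lay on 9 slides and 3 scan dates. Other normalizations, filters, blocks and left-out arrays were tried.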

Additional observations from a re-analysis of the deposited data

Results flagged for a closer look

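In each group with at least 4 values, the highest and lowest mouse of every gene was compared with the rest by Dixon's ratio at its 95% critical value; 9 of 59 sets of values held a mouse that far from the others, where chance gives about 1 in 20. Of these, 8 fall in the 2 libraries that stand apart.

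In the library labelled knockout saline replicate 1, Lyve1 stood at a log2 level of 2.79, while the other 5 mice lay between -0.74 and -0.14. Wnt2 stood at -4.01 against -0.27 to 0.95, Sox18 at -4.46 against -0.64 to 0.41, and Pcdh12 at -3.64 against 0.02 to 1.23. Oit3 stood at -0.32 against 1.13 to 1.92 and Clec4g at 1.75 against 3.48 to 4.45. In the library labelled knockout LPS 6 h replicate 1, Gpr182 stood at 3.54 against 0.52 to 0.88 and Oit3 at 2.21 against -0.52 to -0.11.

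The remaining value is Clec4g in knockout LPS 20 h replicate 4, at 2.25 against -2.22 to -0.61 in the other 5 mice. The same mouse had the highest Wnt2, Sox18, Pcdh12, Gpr182, Oit3 and Dnase1l3 of its group and the lowest score on the 6 h response, 0.24.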

How the results depend on the processing

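The number of members called between genotypes, 0 in each of the 5 comparisons, was the same under every alternative run except that it was 0 to 1 at 6 h when 1 replicate was left out: without wild-type LPS 6 h replicate 3, Gata4 passed (1.18, limma adjusted p 0.0404). Of the other sinusoidal markers, 7 fell in wild-type mice at 6 h. The number was 11 in the deposited table and 3 with the slide as a block. It was 12 with only the compared groups fitted and 11 without the 2 libraries that stand apart. It was 2 to 10 with 1 replicate left out, 2 without wild-type LPS 6 h replicate 2 and 10 without knockout LPS 6 h replicate 1. Counts within a date that held 1 mouse at 6 h are not given. In knockout mice at 6 h, 0 became 8 within scan date 2 and 12 without the 2 libraries. It was 0 to 10 with 1 replicate left out (8 without knockout saline replicate 1). At 20 h the ranges with 1 replicate left out were 9 to 11 in wild-type and 7 to 11 in knockout mice, and the 9 in knockout mice became 0 within scan dates 2 and 3. Fewer arrays enter the fits within dates; other causes were not tested.

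Among the members' LPS differences, Gata4 in wild-type mice at 20 h turned to -0.13 as a mean over its probes, and Stab2 in knockout mice at 20 h to -0.60 within scan date 1. Scan date 3 holds both libraries that stand apart and no other knockout 6 h array. Within it, knockout 6 h differences turned to -1.01 for Lyve1, 2.90 for Wnt2, 1.86 for Gpr182 and 1.55 for Clec4g. They turned to 2.30 for Sox18, 2.73 for Pcdh12, 1.77 for Oit3 and 0.77 for Dnase1l3. The sizes of dim genes depend on the background correction: with normexp, Sox18 in wild-type mice at 6 h was at -2.55 and Pcdh12 at -3.25. Replicate numbers did not pair the mice (r of -0.68 to 0.34 over 72 same-numbered pairs, 2 of 32 arrays closest to their own number), and a replicate block left the counts at 0 called members in each genotype comparison. With each array centred on its median, the median difference of all genes was -0.15 in wild-type mice at 6 h and 0.27 for the interaction at 6 h. This turned no sign among the members' LPS differences. Genotype and interaction differences were compared by whether they passed the test and not by sign, and those near 0 can turn with such a shift.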

Other observations

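Stellate cells, which store vitamin A beside the sinusoid, showed their largest differences at 20 h in wild-type mice. The log2 differences from saline were -3.82 for the soluble collectin Colec11 and -2.95 for the neurotrophin receptor Ngfr. Among Kupffer cell genes, the complement receptor Vsig4 stood at -4.20, Cd5l at -3.94 and the haemoglobin scavenger receptor Cd163 at -3.39 at 20 h, while the scavenger receptor Marco rose by 2.47 at 6 h and 3.04 at 20 h. Neutrophil granule genes rose, with Ngp at 4.88 and 6.61 and the collagenase Mmp8 at 5.15 and 5.38 at 6 h and 20 h. All of these passed an adjusted p of 0.05 by limma.

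Of 9 hepatocyte genes measured, 0 rose and 0 fell at 6 h in wild-type mice (12.4% and 16.1% of all names). At 20 h 1 rose and 4 fell (16.3% and 20.2%). The 3 lung epithelium genes that passed the filter had a summed linear level in wild-type mice of 0.07 to 0.28 on saline, 0.23 to 1.15 at 6 h and 0.50 to 2.44 at 20 h.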
